A study of Mus musculus with 8 samples.

Results

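The 50 genes described here encode heat shock proteins, chaperonins, co-chaperones and heat shock factors. They were chosen by gene symbol from a fixed list of 50, and all 50 were found among the 56691 genes of the deposited table. All 50 also passed the filter on low counts, which left 15870 genes. The list was drawn up after Stip1 had been seen to be higher in the knockout, so the differences of single members between the genotypes are given as descriptions, and nothing is read from counts of calls in that comparison. RNA was sequenced in bulk from mouse Kupffer cells, macrophages that live in the liver sinusoids, sorted as live cells carrying CD45 and Tim-4 from livers with B16F10 melanoma metastases, 7 days after the tumour cells were injected. There were 4 libraries from wild-type mice (WT 1 to 4) and 4 from Vsig4-/- mice (KO 1 to 4), which lack an immune receptor of Kupffer cells, and every liver carried melanoma. Livers without melanoma were not analysed here. The labels give no strain, sex, age or injection route and do not say that the libraries came from separate mice, so p-values reflect library-to-library spread, part of which may be technical.

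Chaperones bind unfolded or newly made proteins and use cycles of ATP binding and hydrolysis to let them fold. HSP70 proteins take substrates from J-domain proteins and release them with the help of nucleotide exchange factors such as BAG and HSP110 proteins. Some substrates pass from HSP70 to HSP90 through the adaptor Stip1, also called Hop, and others enter the closed chambers of the chaperonins, TRiC in the cytosol and Hspd1 with Hspe1 in mitochondria. The transcription factor Hsf1 switches on many of these genes when proteins misfold, and the chaperones of the endoplasmic reticulum (ER) answer to the unfolded protein response instead. Kupffer cells make and secrete many proteins, which pass through the chaperones of the ER.

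Library totals lay between 15264043 and 19513844 counts, and levels are given as CPM, counts scaled to a common library total. Vsig4 counts ran from 22498 to 46735 in WT and from 2 to 9 in KO, as the labels state. All 10 Kupffer cell markers were present in every library, with Clec4f at 2362 CPM or more and Timd4, which encodes Tim-4, at 169.7 CPM or more. Melanoma RNA was present as well. The summed level of 10 melanoma markers was 486, 415, 5488 and 4707 CPM across WT 1 to 4 and 2437, 3485, 12376 and 6449.6 across KO 1 to 4, and none of the 10 was at 0 in any library. The melanoma level was lowest in WT 1 and WT 2 and highest in KO 3, with the other WT and KO libraries overlapping between them. The summed Kupffer cell markers ran the opposite way, from 34974 CPM in WT 1 to 7772 in KO 3. Markers of other cell types were present too, with sums of 1031 to 2758.5 CPM for hepatocytes (6 markers), 159.8 to 667 for sinusoidal endothelium (6 markers) and 39.2 to 169.9 for T cells (6 markers). In WT 1 and WT 2 the hepatocyte and endothelial sums were above the melanoma sum. For hepatocytes this rested on 1 marker, Trf, at 1764.7 CPM in WT 1 and 1301.9 in WT 2. Alb, the next, was at 403 and 302 CPM there. Trf was lowest in KO 3, at 529.7 CPM, where the summed Kupffer cell markers were also lowest. In bulk RNA, fewer cells of a type and less RNA per cell cannot be told apart, and this touches each level that follows.

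Promoter letters are shown first for members whose sequence holds a complete copy of a known control element, among them the mitochondrial chaperonin pair described later. RefSeq promoter windows (GRCm38.p6, 250 bases before to 50 after each start) were found for 41 of the 50 members. The heat shock element, the site for heat shock factors, was searched on both strands as GAA, any 2 bases, TTC, any 2 bases, GAA. It was found in 5 of the 41 members (12.2%) and in 0.662% of the 27025 genes with a window. The capitals in the lines that follow mark the bases of every match, and overlapping matches run together.
Hspe1: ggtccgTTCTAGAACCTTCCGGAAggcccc
Hspd1: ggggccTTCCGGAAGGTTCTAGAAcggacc
Hsph1: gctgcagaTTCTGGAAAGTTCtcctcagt
Chordc1: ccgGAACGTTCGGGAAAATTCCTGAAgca
Dnajb6: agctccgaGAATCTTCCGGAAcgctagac
The Hspe1 and Hspd1 lines are the plus and minus strand of the same bases, chr1:55088053-55088082: the pair of genes lies head to head with starts 216 bases apart and shares 1 stretch of 18 matched bases, which holds 2 overlapping matches. Hsph1 is on the minus strand at chr5:149636280-149636308, Chordc1 on the plus strand at chr9:18292260-18292288 and Dnajb6 on the plus strand at chr5:29735844-29735872. The matches of Hspe1, Hspd1 and Dnajb6 lie before the start, the match of Hsph1 after it, and those of Chordc1 across it. Hspd1, Hsph1 and Dnajb6 had 2 windows each, and these positions are counted from 1 start of each gene. For Hspd1 only 1 of the 2 windows held the matches, and the 216 bases are counted from its start. The stretch of the Hspe1 and Hspd1 pair overlaps an annotated exon of Hspd1, and the others overlap exons of their own gene. The Dnajb6 stretch also overlaps an exon of another annotated gene, Gm5129.

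The ER stress element, a site used by factors of the unfolded protein response, was searched on both strands as CCAAT, any 9 bases, CCACG, and was found in 3 members (7.32% of the 41) against 0.137% of all genes with a window. The 2 members with a single match are printed with its fixed letters in capitals.
Hspa5: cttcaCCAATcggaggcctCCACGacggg
Dnajc3: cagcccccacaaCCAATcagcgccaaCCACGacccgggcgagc
Hspa5 is on the plus strand at chr2:34772020-34772048, where an exon of Hspa5 is annotated, and Dnajc3 on the plus strand at chr14:118937815-118937857, outside any exon. The third, Hsp90b1, held 2 matches, on opposite strands, within chr10:86705521-86705668. A match describes letters and is no evidence of binding, and members with no match may still hold elements outside this window or in another spelling. KO minus WT differences of the 5 heat shock element genes ran from -0.10 for Dnajb6 to 1.06 for Hspd1 on the log2 scale, and those of the 3 ER stress element genes from 0.047 for Hspa5 to 0.16 for Hsp90b1. Differences and slopes in the following paragraphs are on the log2 scale with ± 1 SE, unless SD is stated.

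Levels of different genes were compared as FPKM, which divides by the deposited exonic size of each gene, so orders of genes depend on those sizes. Hsp90ab1, the constitutive cytosolic HSP90, was the most abundant member with a mean of 842 FPKM over the 8 libraries. Hspa8, the constitutive cytosolic HSP70, followed at 451 FPKM, then Hsp90b1, the HSP90 of the ER, at 437 and Hspa5 (BiP), its HSP70, at 332. Hspd1 at 321 and Hsp90aa1, the inducible cytosolic HSP90, at 255 came next. The order of neighbours was not fixed: the ranges of Hsp90b1 (374 to 564 FPKM) and Hspa5 (258 to 396) overlapped, and Hspd1 spread from 93.0 to 770.4 across the others. In all, 9 members had a mean of 100 FPKM or more, and 2, the small heat shock gene Hspb1 and Dnaja4, were under 1. The 50 members together took 1.25% of counts in WT 1, the lowest library, and 2.37% in KO 3, the highest. All 4 KO libraries, at 1.66% or more, were above all 4 WT libraries, at 1.39% or less. The same sum was not made for other sets of genes. Since the list was made around a gene seen to be higher in KO, nothing is read from this separation.

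With all 8 libraries and no block, edgeR called 0 of the 50 members between KO and WT at an adjusted p under 0.05, beside 0.00630% of all tested genes, which is 1 gene. At an unadjusted p under 0.05, 12 members were higher and 0 lower in KO, beside 4.23% and 4.56% of all genes. DESeq2 called 2 members, Ahsa1 and Stip1, the gene seen beforehand, beside 0.391% of all genes, and limma on FPKM called 0. The log2 difference was above 0 for 41 members and below 0 for 9, beside 49.6% of all genes above 0. The members' median was 0.23, beside -0.0028 over all genes. The groups did not overlap in 8 members, all with KO higher (Hsp90ab1, Cct3, Cct4, Cct8, Stip1, Ahsa1, Cdc37 and Hsf2), and in 0 with KO lower, beside 2.71% and 2.85% of all genes. Since the list was made around a gene seen to be higher in KO, nothing is read from these counts.

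Libraries with the same number in both genotypes deviated together, which was used to pair them, although the labels do not say what the number marks. In both genotypes, numbers 3 and 4 also held more melanoma RNA than 1 and 2, and a pairing of samples cannot be told apart from that shared difference. With the number as a block, edgeR called 14 members higher and 1 lower in KO, beside 14.0% of all genes (8.98% higher, 5.01% lower). The 14 were Hsp90aa1, Hsph1, Hspd1, Hspe1, Tcp1, Cct2, Cct3, Cct4, Cct6a, Cct7, Cct8, Stip1, Ahsa1 and Fkbp4, and the 1 was Dnajb9. Stip1 had been chosen for this difference, so nothing is read from its call or from these counts. Those calls rested on particular pairs: edgeR called 0 members without pair 2 (0.0126% of all genes), 0 without pair 3 (0.00627%), 2 (Hspa1a and Fkbp4) without pair 1 (1.29%) and 11 without pair 4 (14.0%). In each of pairs 2, 3 and 4, Hspa1a was lower in KO and Fkbp4 higher, and Hspa1a was not called with all pairs. Within pairs, 23 members were higher in KO in all 4, and Dnajb9 and Dnajc5 were lower in all 4. How many of all genes did so was not counted, so nothing is read from this either. KO 3, the library with the most melanoma RNA, was the highest of the 8 in 31 of the 50 members. That count was not made over all genes, and nothing is read from it. With a melanoma score (the mean log2 level of the 10 markers) as a covariate, 45 members had a difference above 0. The members' median was 0.24, beside 0.014 over all genes, and edgeR called 0 members, beside 0.00630% of all genes. The share of all genes above 0 in that fit was not counted, and nothing is read from these values.

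**Figure D1:**
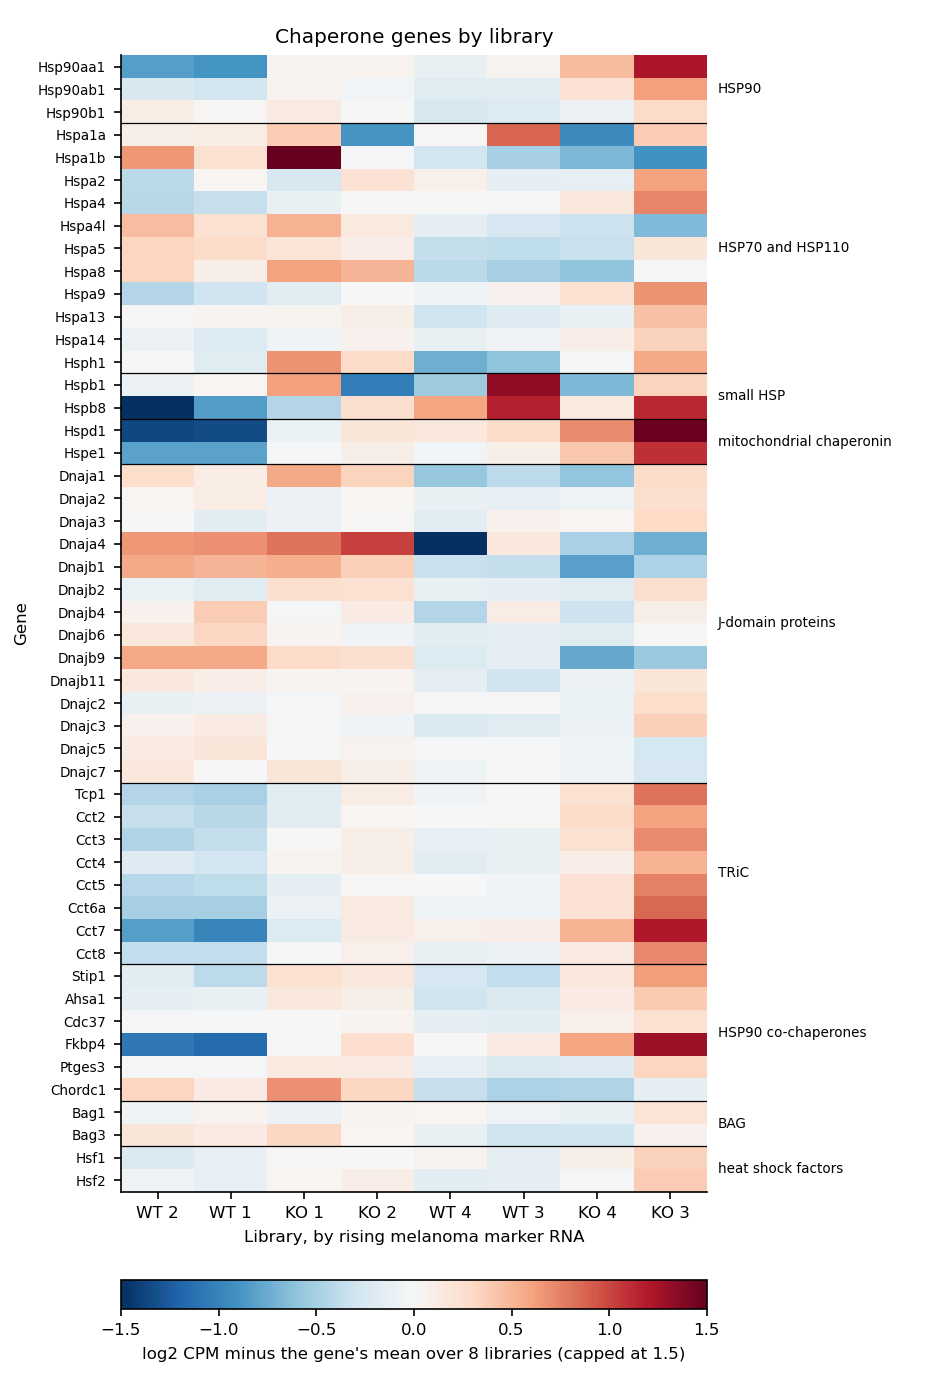
Colour gives log2 CPM minus the gene's mean over the 8 libraries, capped at 1.5, for the 50 members (rows, by class) in each library (columns, by rising melanoma marker RNA). The right column, KO 3, is the highest library in 31 members, a count not made over all genes. Dnajb9, Dnajb1 and Hspa4l pale from red to blue as melanoma RNA rises.

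The relation to melanoma RNA was tested across the whole list with genotype in the fit, and it was not used to choose the members. Slopes are log2 units for each unit of the melanoma score, which is a doubling of the markers' mean level. Of the 50 members, 13 rose and 6 fell, beside 35.2% of all genes (20.8% rose, 14.4% fell), so members were called about as often as genes in general. The median slope was 0.014, beside 0.0011 over all genes. The 13 that rose were Hsp90aa1, Hspa4, Hspa9, Hspb8, Hspd1, Hspe1, Fkbp4 and the TRiC subunits Tcp1, Cct2, Cct3, Cct5, Cct6a and Cct7, and the 6 that fell were Hspa1b, Hspa4l, Hspa8, Dnajb1, Dnajb9 and Chordc1. Of these 19, 10 kept their call in all 8 fits that each left out a library: Hsp90aa1, Hspd1, Hspe1, Hspb8, Cct7 and Fkbp4 rose, and Hspa4l, Dnajb1, Dnajb9 and Chordc1 fell. None held with the replicate number as a block: 0 of the 50 passed, beside 0.990% of all genes. The slope changed sign in 10 of the 19 (Hspa1b, Hspa4l, Hspa8, Hspa9, Dnajb1, Dnajb9, Cct2, Cct3, Cct5 and Chordc1). All 10 of these blocked slopes lay within 1 SE of 0. The numbers follow melanoma RNA in part, so the blocked fit had little room to test a slope. The SE of Hspd1 grew from 0.0471 to 0.134. Not passing with the block therefore does not show that a slope was absent. The slopes called in the following paragraphs are from the fit without the block, with the blocked slope beside those of most called members.

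Stip1, the adaptor that links HSP70 to HSP90, was at 116, 136, 117 and 128 CPM across WT 1 to 4 and 178, 171, 234 and 169.5 across KO 1 to 4. Every KO library was above every WT library, and KO 3 stood above the other 3 KO libraries. The means were 124 ± 9.38 CPM in WT and 188 ± 30.9 in KO (SD, n = 4 each), a log2 difference of 0.60 ± 0.133. This difference chose the gene and carries no test. Its size was 0.48 without KO 3 and 0.56 ± 0.152 with the melanoma score as a covariate. The slope of Stip1 on melanoma RNA was 0.023 ± 0.0432 and did not pass the test (edgeR adjusted p = 0.712). The deposited table places Stip1 on chromosome 19, 6998070 to 7017335, minus strand, without naming a build.

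The other co-chaperones of HSP90 differed among themselves. Ahsa1, which speeds up the ATPase of HSP90, was at 128, 126, 119 and 113 CPM across WT 1 to 4 and 154, 147, 181 and 151 across KO 1 to 4, and like Stip1 it showed no overlap and a slope near 0 (-0.0073 ± 0.0347, edgeR adjusted p = 0.890). Cdc37, which delivers kinases to HSP90, differed little, by 0.18 ± 0.0947, although its groups did not overlap either. Fkbp4, an immunophilin that binds HSP90 in steroid receptor complexes, was at 107, 114, 259 and 239 CPM across WT 1 to 4 and 236, 284, 579 and 361 across KO 1 to 4. WT 1 and WT 2 were the lowest libraries and KO 3 the highest, while KO 1 lay below WT 3. The KO minus WT difference of Fkbp4 was 1.02 ± 0.384 and 0.41 ± 0.151 with the melanoma score in the fit. It rose with melanoma RNA by 0.37 ± 0.0434 for each doubling (edgeR adjusted p = 2.34e-04, and 0.22 ± 0.120 with the block, adjusted p = 1).

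Chordc1, another HSP90 partner, ran the other way, at 127, 146, 84.7 and 92.2 CPM across WT 1 to 4 and 189, 145, 106 and 85.5 across KO 1 to 4. It was highest in KO 1 and lowest in WT 3 and KO 4. Chordc1 fell with melanoma RNA by 0.22 on the log2 scale for each doubling (SE 0.0552, edgeR adjusted p = 0.0139). With the block its slope was above 0, at 0.050 ± 0.132 (edgeR adjusted p = 1). Ptges3 (p23), which holds the closed form of HSP90, had a slope of -0.023 ± 0.0413 and did not pass the test (edgeR adjusted p = 0.692). So, of the 6 HSP90 co-chaperones, 1 rose and 1 fell with melanoma RNA and 4 did not pass the test, a share near the 35.2% of all genes called. Ahsa1, Cdc37 and Ptges3 fall outside the rule for named genes and were chosen after their values were seen.

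Among the HSP90 genes themselves, Hsp90aa1 was at 479, 503, 923 and 821 CPM across WT 1 to 4 and 912, 919, 2063 and 1238 across KO 1 to 4. WT 1 and WT 2 were again lowest and KO 3 highest, and KO 1 and KO 2 lay close to WT 3. Its KO minus WT difference was 0.91 ± 0.339, and 0.39 ± 0.198 with the melanoma score in the fit. Hsp90aa1 rose with melanoma RNA by 0.29 ± 0.0557 for each doubling (edgeR adjusted p = 0.00430, and 0.052 ± 0.142 with the block, adjusted p = 1). Hsp90ab1, at 2033, 2084, 2195 and 2172 CPM across WT 1 to 4 and 2544, 2392, 3754 and 2859.6 across KO 1 to 4, did not overlap between the genotypes, and its WT libraries were nearly level. Its difference was 0.45 ± 0.205 and its slope 0.072 ± 0.0528 (edgeR adjusted p = 0.310). Hsp90b1, in the ER, was at 1768, 1898, 1519.9 and 1480.1 CPM across WT 1 to 4 and 1918, 1741, 2138 and 1656 across KO 1 to 4, with overlapping groups and a slope of -0.050 ± 0.0479 (edgeR adjusted p = 0.443).

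Of the 9 members with a mean of 100 FPKM or more, the mitochondrial chaperonin gene Hspd1 had the widest range. Hspd1 (HSP60), which forms the folding chamber, was at 272, 268, 836 and 765 CPM across WT 1 to 4 and 642, 783, 1914 and 1124 across KO 1 to 4. The highest library was 7.13 times the lowest, WT 1 and WT 2 lay far below the rest, and the remaining WT libraries lay between KO 1 and KO 4. Hspe1 (HSP10), its lid, was at 98.7, 98.5, 182 and 166 CPM across WT 1 to 4 and 168, 182, 366 and 228 across KO 1 to 4, with the same libraries lowest and highest. The KO minus WT differences were 1.06 ± 0.494 for Hspd1 and 0.79 ± 0.308 for Hspe1, and with the melanoma score in the fit they were 0.28 ± 0.163 and 0.29 ± 0.160. Without KO 3 the difference of Hspd1 was 0.67 and that of Hspe1 0.50. Both genes rose with melanoma RNA. The slope was 0.48 ± 0.0471 for Hspd1 (edgeR adjusted p = 6.78e-05, and 0.31 ± 0.134 with the block, adjusted p = 0.837), the member with the smallest p, and 0.28 ± 0.0455 for Hspe1 (edgeR adjusted p = 0.00168, and 0.10 ± 0.120 with the block, adjusted p = 1).

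The divergent pair with the shared element printed above did not keep a fixed proportion. Hspd1 FPKM divided by Hspe1 FPKM was 1.53, 1.52, 2.56 and 2.57 across WT 1 to 4 and 2.13, 2.40, 2.92 and 2.76 across KO 1 to 4. It was lowest in WT 1 and WT 2 and highest in KO 3, so Hspd1 spread more than Hspe1 did. The deposited positions, which carry no build, are chromosome 1, 55116994 to 55127402, minus strand, for Hspd1, and chromosome 1, 55127291 to 55130466, plus strand, for Hspe1, and the ends overlap. Reads in the overlap cannot be assigned with certainty, since the strand setting of the counting is not given in the sources used here. Rows named as pseudogenes of 8 members (Cct3, Dnaja1, Dnajb6, Hspa9, Hspd1, Hspe1, Ptges3 and Tcp1) are in the table, and reads could be split between copies.

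**Figure D2:**
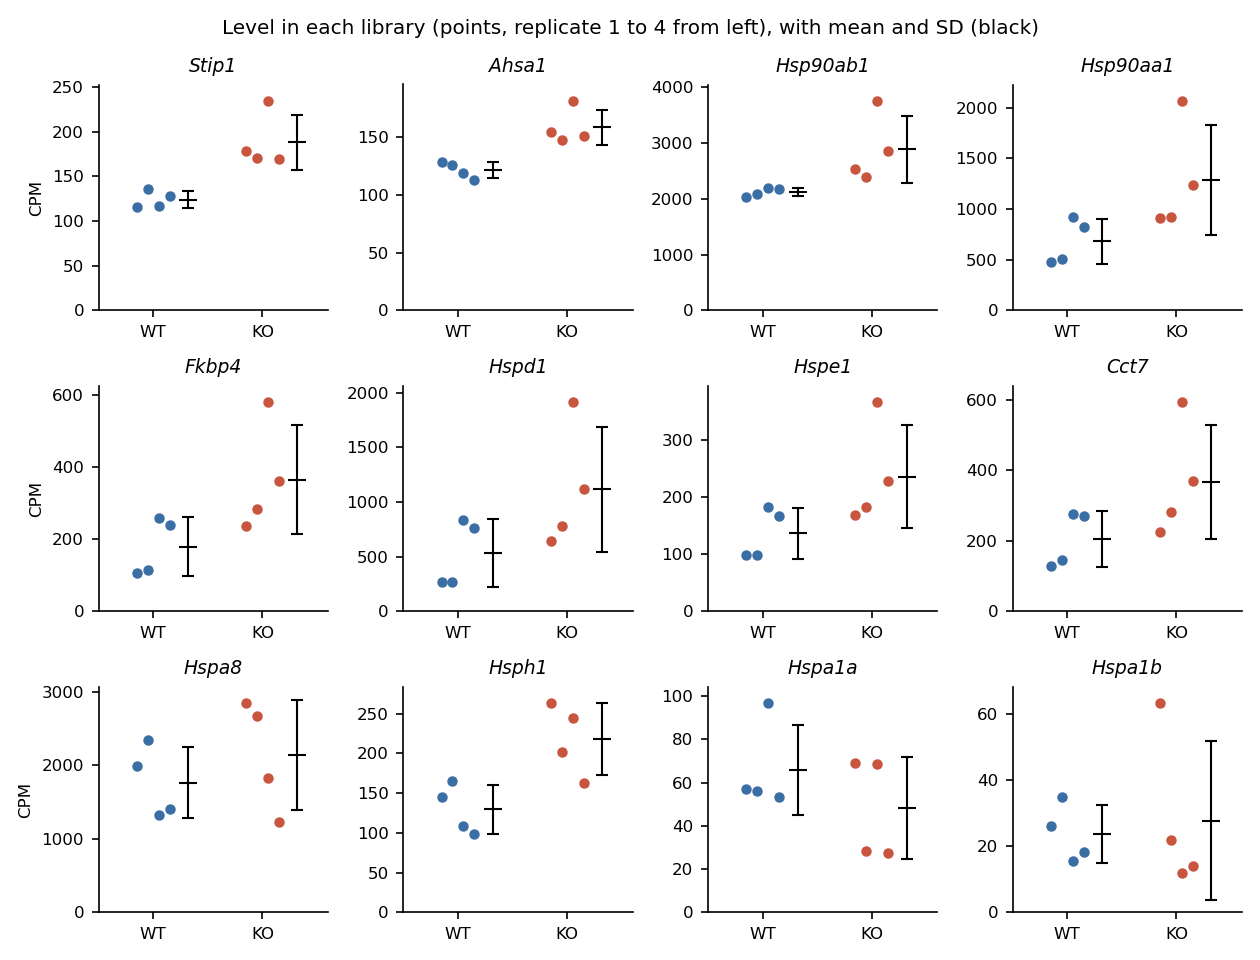
Level in CPM of 12 members in the 4 WT (blue) and 4 KO (red) libraries, replicate 1 to 4 from left, with the mean and SD in black. Stip1, Ahsa1 and Hsp90ab1 show no overlap between the genotypes, and the other 9 overlap. KO 3 is the highest point for Stip1, Ahsa1, Hsp90ab1, Hsp90aa1, Fkbp4, Hspd1, Hspe1 and Cct7.

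**Figure D3:**
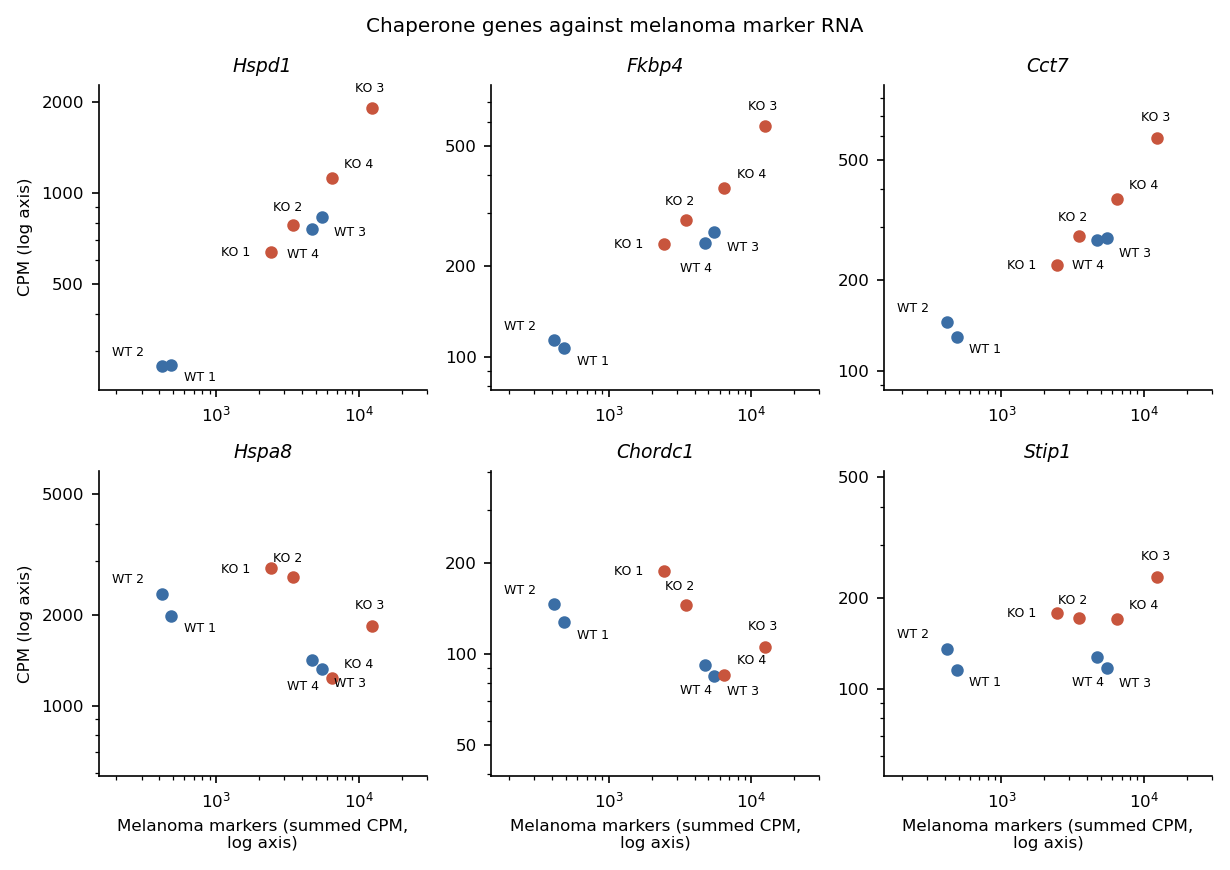
Level in CPM against the summed melanoma markers in CPM, both on log axes, for 6 members, with 1 labelled point for each WT (blue) and KO (red) library. Hspd1, Fkbp4 and Cct7 climb from WT 1 and WT 2 to KO 3, Hspa8 and Chordc1 are lower in WT 3, WT 4 and KO 4 than in WT 1 and WT 2, and Stip1 has its KO points above its WT points.

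TRiC, the cytosolic chaperonin that folds actin and tubulin, is built from 8 different subunits, and all 8 were on the list. All 8 had a KO minus WT difference above 0, beside 49.6% of all genes. The class median was 0.50, beside -0.0028 over all genes. Cct7, the subunit with the largest, was at 130.1, 145, 276 and 271 CPM across WT 1 to 4 and 225, 281, 594 and 370.4 across KO 1 to 4. WT 1 and WT 2 were lowest and KO 3 highest, and WT 3 and WT 4 lay above KO 1. Cct8, the most abundant subunit by FPKM (108), was at 251, 250, 305 and 299.9 CPM across WT 1 to 4 and 323, 342, 533 and 351 across KO 1 to 4, with every KO library above every WT library. Cct2, the next by FPKM (105), was at 194, 204, 264 and 258 CPM across WT 1 to 4 and 232, 265, 396 and 315 across KO 1 to 4, and its groups overlapped. The differences were 0.84 ± 0.365 for Cct7, 0.49 ± 0.184 for Cct8 and 0.39 ± 0.192 for Cct2. The remaining 5 subunits had differences between 0.39 (Cct4) and 0.59 (Cct6a). Without KO 3 the differences of Cct7, Cct8 and Cct2 were 0.51, 0.29 and 0.24. The class median was 0.25 with the melanoma score in the fit.

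Of the 8 TRiC subunits, 6 rose with melanoma RNA and 0 fell, beside 20.8% and 14.4% of all genes. Cct7 rose by 0.33 ± 0.0523 for each doubling (edgeR adjusted p = 0.00136, and 0.11 ± 0.131 with the block, adjusted p = 1), Tcp1 by 0.17 ± 0.0470 (edgeR adjusted p = 0.0196, and 0.020 ± 0.129 with the block, adjusted p = 1), Cct6a by 0.17 ± 0.0475 (edgeR adjusted p = 0.0206, and 0.040 ± 0.134 with the block, adjusted p = 1) and Cct2 by 0.15 ± 0.0406 (edgeR adjusted p = 0.0189, and -0.013 ± 0.117 with the block, adjusted p = 1). Tcp1 was at 169, 176, 236 and 229 CPM across WT 1 to 4 and 214, 256, 416 and 278 across KO 1 to 4. Cct6a was at 185, 185, 249.6 and 249 CPM across WT 1 to 4 and 246, 286, 473 and 303 across KO 1 to 4. In both, WT 1 and WT 2 were the lowest libraries and KO 3 was the highest by a wide margin. Cct5 and Cct3 rose as well, and Cct4 and Cct8, with slopes of 0.060 ± 0.0390 and 0.12 ± 0.0456, did not pass the test (edgeR adjusted p = 0.253 and 0.0636). The call of Cct3 held in 1 of the 8 fits that each left out a library, and that of Cct7 in all 8. With the score as a covariate, the KO minus WT difference of Cct7 was 0.24 ± 0.185. The 10 proliferation genes on a separate list, such as Mki67, all rose with melanoma RNA too, beside 20.8% of all genes, though none passed with the block. Their summed level was 494, 615, 1236 and 1208 CPM across WT 1 to 4 and 954, 1136, 2462 and 1545 across KO 1 to 4. It was lowest in WT 1 and WT 2 and highest in KO 3, and its part in the level of TRiC was not tested.

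The HSP70 and HSP110 class, with 11 members, was mixed. Hspa8 was at 1985, 2342, 1326 and 1411 CPM across WT 1 to 4 and 2845, 2667, 1834 and 1232 across KO 1 to 4. KO 1 and KO 2 were highest and KO 4 lowest, so the groups overlapped, and the KO minus WT difference was 0.28 ± 0.318. That difference was 0.10 without KO 1, 0.46 without KO 4 and 0.68 ± 0.234 with the melanoma score in the fit. Hspa8 fell with melanoma RNA by 0.22 for each doubling (SE 0.0701, edgeR adjusted p = 0.0351). That call held in 2 of the 8 fits that each left out a library. With the block the slope of Hspa8 was above 0, at 0.12 ± 0.162 (edgeR adjusted p = 1). Hspa5 (BiP), which folds proteins in the ER and holds its stress sensors inactive, was at 1678, 1731, 1066 and 1079.9 CPM across WT 1 to 4 and 1579, 1483, 1576 and 1101 across KO 1 to 4. It was low in WT 3, WT 4 and KO 4 and level elsewhere, and its slope of -0.15 ± 0.0538 did not pass the test (edgeR adjusted p = 0.0517).

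Other HSP70 relatives split in direction. Hspa9 (mortalin), the HSP70 of mitochondria, was at 215, 196, 278 and 253 CPM across WT 1 to 4 and 238, 266, 422 and 312 across KO 1 to 4. Hspa4, a cytosolic exchange factor of the HSP110 family, was at 293, 281, 369 and 372 CPM across WT 1 to 4 and 345, 374, 619.7 and 420.3 across KO 1 to 4. In both, KO 3 stood highest and WT 1 and WT 2 lowest. Hspa9 rose with melanoma RNA by 0.16 ± 0.0437 for each doubling (edgeR adjusted p = 0.0224, and -0.011 ± 0.123 with the block, adjusted p = 1). Hspa4 rose by 0.15 ± 0.0464 (edgeR adjusted p = 0.0291, and 0.0064 ± 0.135 with the block, adjusted p = 1), a call that held in 2 of the 8 fits that each left out a library. Hspa4l, a relative of Hspa4, was at 75.3, 88.9, 54.1 and 58.8 CPM across WT 1 to 4 and 92.0, 71.4, 40.8 and 51.7 across KO 1 to 4. KO 3 was its lowest library, and Hspa4l fell by 0.22 for each doubling (SE 0.0519, edgeR adjusted p = 0.0105). With the block its slope was above 0, at 0.040 ± 0.127 (edgeR adjusted p = 1). Hsph1 (HSP105), a further member of the HSP110 family that was chosen after its values were seen, was at 145, 165, 108 and 99.1 CPM across WT 1 to 4 and 263, 202, 245 and 163 across KO 1 to 4. Only KO 4 among the KO libraries lay below a WT library, and the difference of Hsph1 was 0.75 ± 0.212, and 1.02 ± 0.189 with the melanoma score in the fit.

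The stress-inducible HSP70 genes Hspa1a and Hspa1b are near-identical copies, so the split of reads between them is uncertain. Hspa1a, chosen after its values were seen, was at 57.1, 56.0, 96.7 and 53.5 CPM across WT 1 to 4 and 69.0, 28.6, 68.7 and 27.3 across KO 1 to 4. Hspa1b was at 26.1, 35.0, 15.7 and 18.2 CPM across WT 1 to 4 and 63.4, 21.9, 11.9 and 14.0 across KO 1 to 4. WT 3 was the highest library for Hspa1a and KO 1 for Hspa1b, KO 2 and KO 4 were lowest for Hspa1a, and KO 3 and KO 4 for Hspa1b. Their sum was 83.2, 91.0, 112 and 71.7 across WT 1 to 4 and 132, 50.5, 80.6 and 41.4 across KO 1 to 4 (CPM), with overlapping groups. Hspa1b fell with melanoma RNA by 0.40 for each doubling (SE 0.125, edgeR adjusted p = 0.0328). With the block its slope was above 0, at 0.084 ± 0.276 (edgeR adjusted p = 1). The slope of Hspa1a without the block was 0.10 ± 0.111 (edgeR adjusted p = 0.491). The direction of the KO minus WT difference of Hspa1b hung on KO 1 and on the fit. Without the block it was 0.23 ± 0.535 with KO 1 and -0.58 without KO 1. With KO 1 kept, it was -0.043 ± 0.304 with the block and 0.83 ± 0.389 with the melanoma score in the fit.

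These genes can be induced while cells are isolated, so 13 early genes that respond to handling, such as Fos and Jun, were read in the same libraries. Their summed level was 6156, 4971, 6869.5 and 4593 CPM across WT 1 to 4 and 4231, 3047, 4644 and 2562 across KO 1 to 4. The groups overlapped, and none of the 13 was at 0 in any library. The mean was lower in KO in 12 of the 13, while 49.6% of all genes had a log2 difference above 0. Without the block edgeR called 0 of the 13 between genotypes, and with it 10 fell in KO, beside 5.01% of all genes. None of the 13 passed the test for a slope on melanoma RNA. Whether handling has a part in the levels of Hspa1a, Hspa1b, Dnajb1 or Hsph1 was not tested. The other members of the class, Hspa2, Hspa13 and Hspa14, had differences between 0.23 and 0.26, and none of these 3 passed the test of the slope.

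J-domain proteins hand substrates to HSP70, and the class had 14 members. Dnajb1, the main partner of inducible HSP70 and a classic heat shock gene, was at 64.1, 66.7, 35.0 and 35.7 CPM across WT 1 to 4 and 65.9, 57.9, 32.4 and 25.6 across KO 1 to 4. It was high in WT 1, WT 2, KO 1 and KO 2 and low in the remaining 4 libraries, whatever the genotype. Dnajb1 fell with melanoma RNA by 0.30 for each doubling (SE 0.0645, edgeR adjusted p = 0.00702). With the block its slope was above 0, at 0.10 ± 0.109 (edgeR adjusted p = 1). Dnajb9, an ER protein that works with BiP, was at 104, 105, 63.4 and 60.7 CPM across WT 1 to 4 and 85.3, 83.0, 47.6 and 41.3 across KO 1 to 4. Each KO library was below the WT library of its number, the groups overlapped, and the difference was -0.37 ± 0.296, or -0.40 ± 0.0858 with the block. Dnajb9 fell with melanoma RNA by 0.25 for each doubling (SE 0.0548, edgeR adjusted p = 0.00730). With the block its slope was above 0, at 0.081 ± 0.0967 (edgeR adjusted p = 1). The KO minus WT difference of Dnajb9 was 0.083 ± 0.179 with the score in the fit.

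The other 12 J-domain members had no slope past the test. By FPKM the most abundant were Dnaja2, a cytosolic partner of Hspa8, and Dnajb11, an ER partner of BiP. That order depends on the deposited exonic sizes, 2975 and 3236 bases for these genes. Dnaja1 and Dnajc7, with 8629 and 8726 bases, had higher CPM than both in every library. Dnaja2 was at 171, 162, 145 and 147 CPM across WT 1 to 4 and 149.5, 161, 187 and 151 across KO 1 to 4. Dnajb11 was at 184, 191, 139.5 and 156 CPM across WT 1 to 4 and 176, 176, 194 and 162 across KO 1 to 4. In Dnaja2 and Dnajb11, the groups overlapped and KO 3 was the highest library. Of the 14, 8 had a KO minus WT difference above 0 and 6 below, beside 49.6% of all genes above 0, with a class median of 0.066. Slopes were below 0 in 12 of the 14, while 50.2% of all genes had a slope above 0. Dnaja1, a cytosolic partner of HSP70 that was chosen after its values were seen, was at 364, 404, 255 and 227 CPM across WT 1 to 4 and 497, 423, 408 and 222 across KO 1 to 4. KO 1 was highest and WT 4 and KO 4 were lowest, and the difference was 0.31 ± 0.279, or 0.66 ± 0.237 with the melanoma score in the fit. The 8 others, Dnaja3 in mitochondria, Dnajc2 at the ribosome, Dnajc3 in the ER, Dnajc5 on vesicles, and Dnajb2, Dnajb4, Dnajb6 and Dnajc7, had differences from -0.13 for Dnajc5 to 0.28 for Dnajb2. Dnaja4 was the least abundant member of all at a mean of 0.365 FPKM, with 4 to 44 counts in a library, so its ratio between libraries is imprecise.

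The small heat shock proteins hold unfolded proteins without ATP, and both members were rare. Hspb8, which works with Bag3, was at 1.35, 0.618, 5.38 and 3.66 CPM across WT 1 to 4 and 1.78, 2.86, 5.31 and 2.68 across KO 1 to 4, from 11 to 96 counts. WT 3 and KO 3 were highest and WT 2 lowest, and Hspb8 rose with melanoma RNA by 0.62 ± 0.0981 for each doubling (edgeR adjusted p = 0.00142, and 0.88 ± 0.285 with the block, adjusted p = 0.431). Hspb1 (HSP25), at 0.854, 0.786, 2.10 and 0.578 CPM across WT 1 to 4 and 1.28, 0.408, 1.05 and 0.525 across KO 1 to 4, had 8 to 34 counts and a slope that did not pass the test. The co-chaperones Bag1 and Bag3, exchange factors of HSP70, overlapped between the genotypes. Bag1 was at 103, 96.3, 94.7 and 102 CPM across WT 1 to 4 and 93.9, 103, 115 and 92.4 across KO 1 to 4. Bag3 was at 32.1, 33.3, 23.8 and 27.3 CPM across WT 1 to 4 and 36.5, 29.9, 30.8 and 24.0 across KO 1 to 4. Their KO minus WT differences were 0.029 ± 0.0997 and 0.056 ± 0.162, and neither slope passed the test.

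Neither heat shock factor passed the test for a slope on melanoma RNA. Hsf1, the main activator of the heat shock response, was at 34.2, 32, 33.8 and 38.6 CPM across WT 1 to 4 and 37.6, 37.0, 47.2 and 39.5 across KO 1 to 4. Hsf2, its relative, was at 24.0, 25.1, 23.8 and 23.2 CPM across WT 1 to 4 and 26.7, 27.9, 33.8 and 25.6 across KO 1 to 4, with every KO library above every WT library by a narrow margin. The differences were 0.22 ± 0.114 for Hsf1 and 0.25 ± 0.117 for Hsf2, and the slopes 0.058 ± 0.0332 and 0.012 ± 0.0384 (edgeR adjusted p = 0.194 and 0.837). Transcript levels do not measure the activity of these factors.

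**Figure D4:**
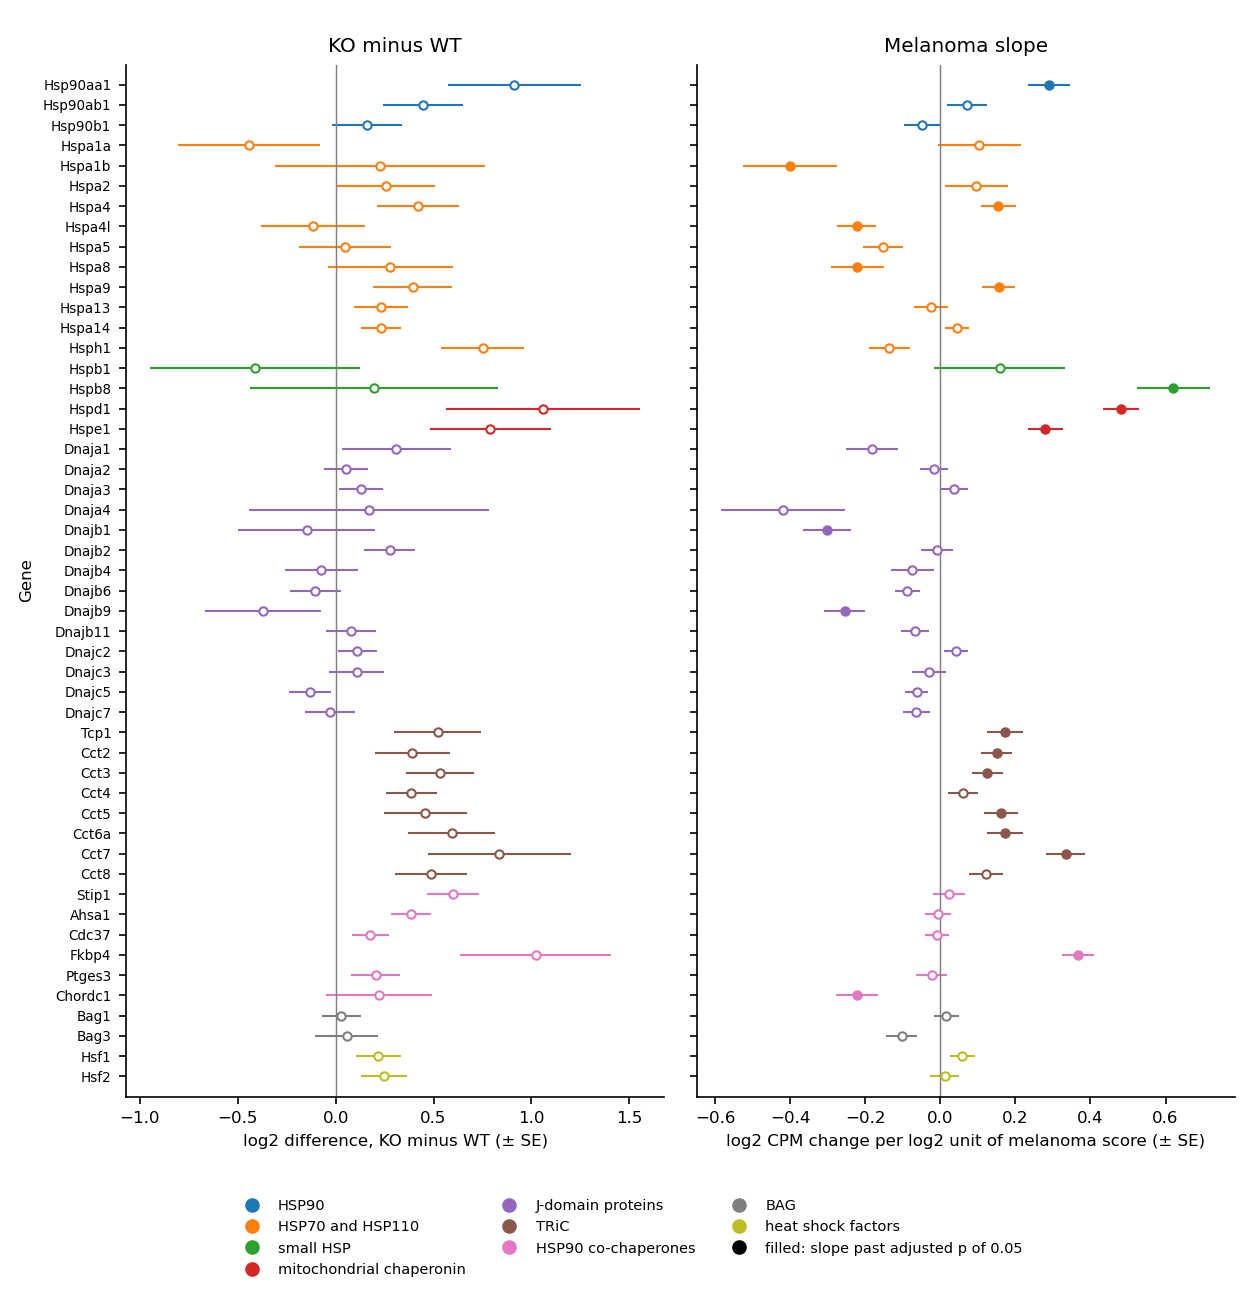
For each of the 50 members (rows, coloured by class), the left panel gives the KO minus WT log2 difference and the right panel the log2 change for each unit of the melanoma score, with bars of 1 SE. Filled points in the right panel are the 19 members past the test, with Hspb8, Hspd1 and Fkbp4 farthest to the right and Hspa1b and Dnajb1 farthest to the left of them.

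Other genes of the folding machinery were read from 6 lists, of which 92 genes were tested. In total 14 rose and 11 fell with melanoma RNA, beside the 20.8% and 14.4% of all genes that rose and fell, and 0 of the 92 passed with the replicate block. The counts of the single lists stand against the same shares. Of 9 genes of mitochondrial protein quality control, 3 rose and 0 fell, beside 20.8% and 14.4% of all genes, and the proteases Lonp1 and Clpp rose by 0.26 ± 0.0458 and 0.22 ± 0.0420 for each doubling (edgeR adjusted p = 0.00247 and 0.00437). Lonp1 was at 63.8, 61.1, 108 and 99.1 CPM across WT 1 to 4 and 69.7, 83.7, 159 and 107 across KO 1 to 4, lowest in WT 1 and WT 2 and highest in KO 3 as for Hspd1. Of 18 ER folding genes, 0 rose and 6 fell, beside 20.8% and 14.4% of all genes. Sdf2l1, a partner of BiP, fell by 0.16 and the oxidase gene Ero1b by 0.17 for each doubling (edgeR adjusted p = 0.00544 and 0.00212). Ero1b was at 71.0, 79.3, 52.0 and 47.5 CPM across WT 1 to 4 and 61.5, 57.6, 42.3 and 55.0 across KO 1 to 4, again with WT 1 and WT 2 as the highest libraries and KO 3 as the lowest.

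Of 14 prefoldin subunits and TRiC partners, 3 rose and 0 fell, beside 20.8% and 14.4% of all genes, among them the tubulin cofactor Tbcc and the prefoldin subunit Vbp1 (edgeR adjusted p = 0.0165 and 0.0293). Among 15 other HSP90 co-chaperones, Rpap3 rose, with a slope of 0.33 ± 0.0493 (edgeR adjusted p = 0.00101). Of 11 other HSP70 partners, Bag2, an exchange factor, and Bag5 rose and Hsbp1, which binds Hsf1, fell. Bag2 was at 4.34, 4.94, 12.3 and 9.90 CPM across WT 1 to 4 and 9.52, 14.4, 26.7 and 17.9 across KO 1 to 4, and its slope was 0.40 ± 0.0568 (edgeR adjusted p = 7.88e-04). Of 25 other J-domain genes, 5 rose and 3 fell, close to the 20.8% and 14.4% of all genes, and those with the smallest p, Dnajb14 and Dnajc14, fell by 0.18 and 0.15 for each doubling (edgeR adjusted p = 0.00620 and 0.00933).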

How the data were processed

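The data were 8 bulk RNA libraries of sorted Kupffer cells, 4 WT and 4 Vsig4-/-. The submitters' processing notes name HTSeq 0.6.1 and mm10; which aligner, strand setting and annotation were used is not stated in them. The deposited table holds raw counts per gene and the authors' FPKM values, per the file headers, with gene sizes and positions as other numbers the authors deposited. Positions of 2 of the 50 members equalled GENCODE M21, so no build is given for them. Column letters C and K were read as WT and KO.

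Members and lists were chosen with earlier results of these data known. Counts were filtered with filterByExpr and scaled by TMM. The main test was edgeR 4.0.16 in R 4.3.3 (quasi-likelihood, 2-sided), adjusted by Benjamini-Hochberg over all 15870 genes, threshold 0.05. SEs came from the coefficient and its F statistic. The melanoma score was the mean log2 CPM (prior count 2) of 10 markers, centred; its slope was fitted with genotype over 15860 genes, without the markers. Members named by rule were Stip1, the 2 most abundant of each class by FPKM and up to 4 of each class past the slope test; from other lists, up to 2 past it, of which 1 is not reported here. Same-numbered libraries deviated together from their genotype means (correlations 0.561, 0.544, 0.659 and 0.290 for numbers 1 to 4, each above 0.1). The number was therefore treated as a pair, from the data and not from the labels; numbers 1 and 2 held less melanoma RNA than 3 and 4 in both genotypes, so pairing and that difference cannot be told apart. Replicates differed beyond counting noise (lowest chi-square per degree of freedom 10.0). A gene with 0 counts could still lie at up to 0.154 to 0.197 CPM (3 counts; counting error alone). The fits were tested on simulated data. Alternatives were the block, RLE scaling, other count filters, DESeq2 1.42.0, limma 3.58.1 on log2(FPKM + 1) or log2(FPKM + 0.1), the melanoma covariate and leaving out each library; the block without each pair was added after seeing the data.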

Additional observations from a re-analysis of the deposited data

Results flagged for a closer look

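In each genotype, a library was set apart when its gap to the nearest other library, divided by the range of the 4, passed Dixon's critical value at the 95% level. Of 100 groups of 4 libraries tested over the 50 members, 6 passed, and chance gives about 1 in 20. KO 3 stood apart in 4 members: Stip1 at 234 CPM (the other KO libraries at 169.5 to 178), Cct8 at 533 CPM (323 to 351), Cct4 at 322 CPM (232 to 242) and Dnajc3, an ER co-chaperone, at 258 CPM (189.9 to 199). WT 3 stood apart in Hspa1a at 96.7 CPM (the other WT libraries at 53.5 to 57.1). KO 4 stood apart in Dnajb2 at 16.9 CPM (22.5 to 22.8). Without KO 3 the KO minus WT difference was 0.48 for Stip1 and 0.29 for Cct8 on the log2 scale. KO 3 also had the most melanoma RNA and the lowest Kupffer cell markers, and the part of either in these values was not tested.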

How the results depend on the processing

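The count of members called between genotypes was 0 without a block in edgeR with RLE scaling, with the other count filters, with the melanoma covariate, in limma on FPKM and with each library left out (0 to 0). It was 15 with the replicate block and 2 in DESeq2; with the replicate block it was 2 without replicate 1 and 11 without replicate 4. The members' median difference stayed above 0 in every setting, from 0.15 to 0.31. The count of members past the slope test was 0 with the replicate block, 13 to 28 with a library left out and 18 to 23 in the other settings. With the replicate block the slope turned in 21 of the 50 members. Of these, 10 were called without it (Hspa1b, Hspa4l, Hspa8, Hspa9, Dnajb1, Dnajb9, Cct2, Cct3, Cct5 and Chordc1). The blocked slopes of those 10 lay within 1 SE of 0, in a fit with little room to test a slope. The blocked slopes were -0.12 for Hsp90ab1, 0.084 for Hspa1b, 0.040 for Hspa4l, 0.12 for Hspa8, -0.011 for Hspa9, -0.014 for Hspb1, 0.097 for Dnajb1, 0.081 for Dnajb9, -0.013 for Cct2, -0.0039 for Cct3, -0.00067 for Cct5, -0.080 for Stip1, 0.050 for Chordc1 and -0.044 for Hsf2, and the remaining 7 were Hspa14, Dnaja3, Dnajb2, Dnajc5, Dnajc7, Cct4 and Ptges3. In limma it turned for Dnaja2 (0.026 with FPKM + 1 and 0.026 with FPKM + 0.1) and Ahsa1 (0.034 and 0.035). With a library left out it ran from -0.037 to 0.0045 for Ahsa1, -0.11 to 0.27 for Hspb1, -0.024 to 0.031 for Hsf2, -0.020 to 0.065 for Stip1 and -0.0096 to 0.033 for Bag1. The cause of these changes was not tested. The KO minus WT differences of Hsp90aa1 (0.91), Hspe1 (0.79) and Cct7 (0.84) were 0.39, 0.29 and 0.24 with the melanoma covariate. Depth limits Dnaja4, Hspb1, Hspb8 and Hspa2, which had under 100 counts in every library.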

Other observations

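The balance between the 2 cytosolic HSP90 genes differed between libraries. Hsp90aa1 per 100 units of Hsp90ab1, both as FPKM, was 18.0, 18.4, 32.1 and 28.8 across WT 1 to 4 and 27.4, 29.3, 41.9 and 33.0 across KO 1 to 4. It was lowest in WT 1 and WT 2, highest in KO 3 and alike in the other libraries of both genotypes. Hsp90ab1 was the more abundant of the pair in every library. The 5 most abundant members made up 52.8% to 59.7% of the summed FPKM of the 50.

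Hspa1b made up a varying share of the counts given to Hspa1a and Hspa1b together: 31.3, 38.4, 14.0 and 25.4 across WT 1 to 4 and 47.9, 43.4, 14.8 and 33.9 across KO 1 to 4 (percent). The share was lowest in WT 3 and KO 3 and highest in KO 1 and KO 2. The copies are near identical, and how the counting divided their reads is not given in the sources used here.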
